A study of Homo sapiens with 8 samples.

Results

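The proteasome subunit genes were examined in RNA-seq libraries of Huh7, an established human liver cancer cell line. The members were the genes whose symbol consists of PSM, a letter from A to G and a number, and 44 of the 17076 genes listed in the files met this rule. The 44 genes comprise 7 alpha-ring and 7 constitutive beta-ring genes of the core particle, the inducible beta gene PSMB10, 6 ATPases and 3 other subunits of the base, 8 lid subunits, 3 chaperones of the base, 4 activators, the inhibitor PSMF1 and 4 chaperones of the core particle. PSMA8, PSMB8, PSMB9 and PSMB11 also fit the family by name and were not analysed here.

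The study asked how the RNA helicase UPF1, a central factor of nonsense-mediated mRNA decay (NMD), affects these liver cancer cells. There were 4 groups of 2 libraries: cells given a control siRNA (siControl), cells given an siRNA against UPF1 (siUPF1), cells given a vector for the MYC tag alone (MYC) and cells given MYC-tagged UPF1 (MYC-UPF1). All groups share the parental Huh7 line, and the siRNA or DNA was delivered by lipid transfection according to the study's methods, which do not name which UPF1 siRNA was sequenced. UPF1 itself was at 44.5 and 47.4 FPKM (fragments per kilobase of transcript, scaled to the mapped fragments of the library) in siControl, 20.7 and 21.9 in siUPF1, 45.1 and 57.4 in MYC and 2835 and 2484 in MYC-UPF1, so both manipulations moved it in the labelled direction. Nothing in the labels says that replicates are separate cultures, so p-values measure only the spread between these libraries, which may be technical. The summed FPKM per library ranged from 403902 to 455592, and depth is unknown because the values are not counts. Of the hepatocyte markers, 10 of 10 were listed, with a summed level of 20395 to 23811 FPKM per library. Leukocyte markers were listed for 2 of 5 genes (CD14 and LYZ, summed 162 to 230 FPKM, nearly all of it LYZ), fibroblast markers for 3 of 4 (1.24 to 1.90 FPKM) and endothelial markers for 1 of 3 (0.535 to 0.796 FPKM). In bulk RNA, fewer cells of a kind and less RNA per cell cannot be told apart.

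The proteasome is the main protease of the cytosol and nucleus and degrades proteins marked with ubiquitin. Its core particle is a barrel of stacked rings in which PSMB5, PSMB6 and PSMB7 carry the catalytic sites, while the regulatory particle, made of a base with an ATPase ring and of a lid, recognises, deubiquitinates, unfolds and feeds in the substrate. Most subunits are needed in fixed proportion, and in mammalian cells the transcription factor NFE2L1 (also called NRF1) raises their genes together when proteasome activity falls, by binding antioxidant response elements.

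Because NFE2L1 acts through such elements, the promoters of the members, from 250 bases before to 50 bases after the start of the canonical GENCODE transcript on GRCh37 (the assembly also called hg19), were searched for the core of this element, TGACNNNGC, on both strands. The core was found in 13 of 44 members (29.5%). It was found in 1939 of 13148 promoters (14.7%) of the protein-coding genes listed, which were not filtered by level. The letters CCAAT, the box bound by NF-Y, were found in 18 of 44 members (40.9%) and in 4774 of these promoters (36.3%). PSMB3, PSMD3 and PSMG1 had both motifs, and the matched letters overlapped in no member. A match of letters is a description of the promoter and not a measured binding site. The following sites are examples from the core particle (PSMA7, PSMB3), the lid (PSMD3, PSMD12) and the base chaperones (PSMD9). They are read from GRCh37 on the strand of the gene, with the matched core in capitals.
PSMA7 (chr20:60718551-60718579, minus strand): tggttcggccTGACCCCGCcccggcgcgc
PSMB3 (chr17:36908880-36908908, plus strand): gcctccgtttTGACTTTGCaaccaaacta
PSMD3 (chr17:38137013-38137041, plus strand): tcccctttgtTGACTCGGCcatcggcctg
PSMD12 (chr17:65362840-65362868, minus strand): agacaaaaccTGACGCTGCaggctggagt
PSMD9 (chr12:122326584-122326612, plus strand): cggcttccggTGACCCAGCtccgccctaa
The core lies 104 to 96 bases before the start in PSMB3, 37 to 29 bases before it in PSMD3 and 102 to 94 bases before it in PSMD9. The other members with a match were PSMB6, PSMC4, PSMD1, PSMD5, PSME1, PSME2, PSME4 and PSMG1.

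The members were first compared by level. Their mean over the 8 libraries spanned 97.2-fold, from 268 FPKM for PSMB4, a structural beta-ring subunit, to 2.76 FPKM for PSMG4, a chaperone that helps to assemble the alpha ring. FPKM is scaled to transcript length, but these levels were not corrected for GC content or for exons shared with other genes. The order between genes is therefore approximate. The order of the 44 genes was nearly the same in every library, with a Spearman rho across genes of 0.981 to 0.999 over the 28 pairs of libraries. For 41 of 44 members (93.2%) the highest library was less than 1.5 times the lowest, against 52% of all genes tested and 68.0% of the 7753 genes with a mean of at least 5 FPKM. Together the 44 genes made up 0.804% to 1.04% of the summed FPKM of a library.

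**Figure D1:**
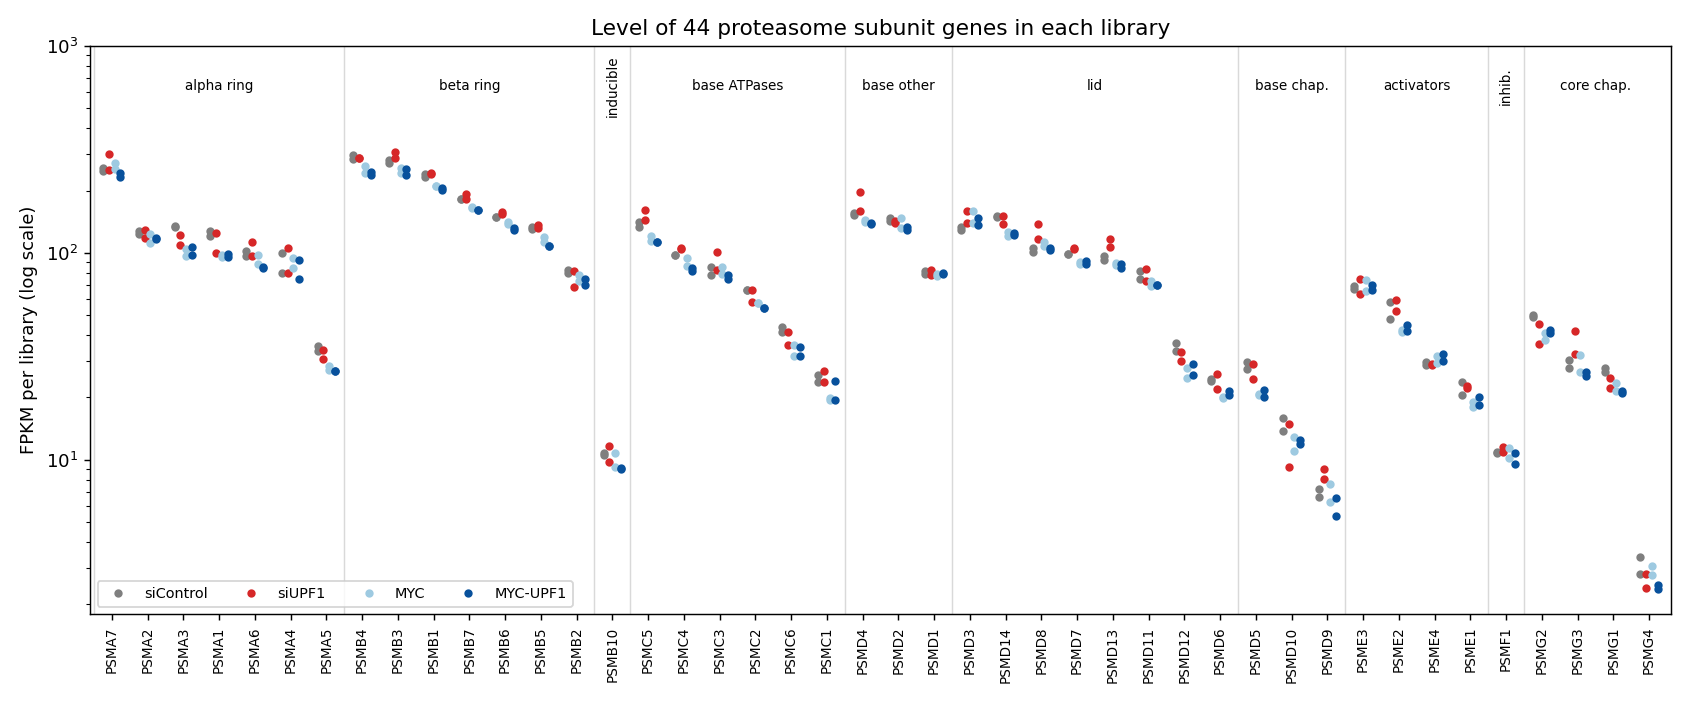
Level of the 44 proteasome subunit genes in each of the 8 libraries, in FPKM on a log axis, with the genes grouped by role and sorted by mean level within a role; each point is a library. Most core-particle and lid genes lie above the chaperones, the inhibitor PSMF1 and the inducible subunit PSMB10, and for 41 of 44 genes the highest point is less than 1.5 times the lowest.

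In the alpha ring, the gate of the core particle, PSMA7 stood above all others with 249 and 257 FPKM in siControl, 252 and 302 in siUPF1, 255 and 271 in MYC and 232 and 244 in MYC-UPF1. PSMA5 was the lowest, with 33.4 and 35.4 FPKM in siControl, 33.8 and 30.5 in siUPF1, 27.2 and 28.3 in MYC and 26.9 and 26.8 in MYC-UPF1. The 5 genes between them averaged 89.0 to 121 FPKM, and the ranges of neighbours in that order overlapped. Of these, PSMA1, PSMA2 and PSMA6 share 814, 1445 and 919 exonic bases with same-strand annotated genes that were not analysed here. For PSMA5 siUPF1 replicate 1 lay between the siControl libraries and replicate 2 below them, and the MYC and MYC-UPF1 libraries were all below siControl.

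In the beta ring, PSMB4 (268 FPKM) and PSMB3 (267 FPKM) had almost the same mean level, followed by PSMB1 (223 FPKM). PSMB4 was at 283 and 297 FPKM in siControl, 287 and 286 in siUPF1, 244 and 264 in MYC and 246 and 237 in MYC-UPF1. PSMB2 was the lowest with 80.05 and 82.4 FPKM in siControl, 81.7 and 68.5 in siUPF1, 73.05 and 78.02 in MYC and 74.9 and 69.8 in MYC-UPF1. For both genes the groups of siControl and siUPF1 overlapped. Of the catalytic subunits, PSMB7 (trypsin-like activity) was listed at 183 and 183 FPKM in siControl, 192 and 183 in siUPF1, 166 and 167 in MYC and 161 and 161 in MYC-UPF1. PSMB6 (caspase-like activity) was at 148 and 149.6 FPKM in siControl, 155 and 157 in siUPF1, 137 and 141 in MYC and 131 and 129 in MYC-UPF1. PSMB5 (chymotrypsin-like activity, the main target of bortezomib) was at 129.8 and 133 FPKM in siControl, 136 and 133 in siUPF1, 113 and 119 in MYC and 108 and 108 in MYC-UPF1. Levels thus ran PSMB7 above PSMB6 above PSMB5, with the ranges of PSMB6 and PSMB5 overlapping, and all catalytic genes had their MYC and MYC-UPF1 libraries below siControl. PSMB10, which replaces PSMB7 in the immunoproteasome, was far lower. It was at 10.8 and 10.6 FPKM in siControl, 9.73 and 11.7 in siUPF1, 9.27 and 10.7 in MYC and 9.10 and 9.04 in MYC-UPF1. Both MYC-UPF1 libraries were the lowest of the 8. PSMB10 shares 640 exonic bases with another annotated gene on the same strand that was not analysed here, so its level is uncertain.

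In the base, the ATPases PSMC1 to PSMC6 unfold the substrate, and PSMC4, PSMC3, PSMC2 and PSMC6 had mean levels from 94.0 down to 37.1 FPKM. PSMC5 was the highest with 133 and 140.4 FPKM in siControl, 144 and 161 in siUPF1, 114 and 120.3 in MYC and 113 and 113 in MYC-UPF1, and PSMC1 the lowest with 23.8 and 25.7 FPKM in siControl, 26.9 and 23.8 in siUPF1, 19.4 and 19.9 in MYC and 24.01 and 19.5 in MYC-UPF1. PSMC1 shares 4667 exonic bases with NRDE2 on the opposite strand and has a pseudogene, PSMC1P1, listed at a mean of 3.29 FPKM, so its level is uncertain where reads were divided between them. Among the other base subunits, PSMD2 had a mean of 139 FPKM, and the ubiquitin receptor PSMD4 was at 152 and 156 FPKM in siControl, 158 and 196 in siUPF1, 141 and 143 in MYC and 138 and 140.1 in MYC-UPF1. PSMD1, a scaffold of the base, was at 78.9 and 81.9 FPKM in siControl, 82.6 and 78.4 in siUPF1, 78.7 and 77.4 in MYC and 78.9 and 79.5 in MYC-UPF1, and the highest of these 8 values was 1.07 times the lowest, the narrowest spread among the members.

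In the lid, PSMD3 was the highest gene by mean, with 129 and 133 FPKM in siControl, 139 and 159.7 in siUPF1, 139.6 and 159.8 in MYC and 147 and 136 in MYC-UPF1. PSMD14, the deubiquitinase that removes ubiquitin from the substrate, was at 149 and 151 FPKM in siControl, 151 and 138 in siUPF1, 126 and 121 in MYC and 121 and 125 in MYC-UPF1. PSMD6 was the lowest with 23.96 and 24.5 FPKM in siControl, 25.8 and 22.00 in siUPF1, 19.8 and 20.2 in MYC and 21.4 and 20.5 in MYC-UPF1. The other lid genes, PSMD8, PSMD7, PSMD13, PSMD11 and PSMD12, had means from 111 down to 30.1 FPKM. PSMD3 was 1 of only 2 members, with PSMD8, whose MYC libraries both lay above both siControl libraries.

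Outside the particle itself, the activator PSME3, the nuclear gamma subunit, was the highest of its class with 66.8 and 69.3 FPKM in siControl, 74.8 and 62.9 in siUPF1, 65.4 and 74.2 in MYC and 69.6 and 66.4 in MYC-UPF1. PSME4, which acts in the nucleus on histones, was at 28.8 and 29.6 FPKM in siControl, 29.2 and 28.8 in siUPF1, 31.6 and 29.5 in MYC and 29.96 and 32.5 in MYC-UPF1. For both, siUPF1 overlapped siControl. PSME2, the partner of PSME1 in the interferon-inducible activator, had a mean of 48.3 FPKM. PSME1 was the lowest activator with 20.5 and 23.7 FPKM in siControl, 22.2 and 22.6 in siUPF1, 18.96 and 18.01 in MYC and 20.1 and 18.4 in MYC-UPF1. The activators PSME1 and PSME2 did not separate siUPF1 from siControl either. The inhibitor PSMF1 was at 10.8 and 10.9 FPKM in siControl, 11.5 and 10.8 in siUPF1, 10.2 and 11.3 in MYC and 10.8 and 9.51 in MYC-UPF1, and siUPF1 overlapped siControl as MYC-UPF1 did MYC. Among the assembly chaperones, PSMD5 led those of the base with 27.5 and 29.8 FPKM in siControl, 29.1 and 24.7 in siUPF1, 20.8 and 20.5 in MYC and 20.1 and 21.7 in MYC-UPF1. PSMG2, the partner of PSMG1 in alpha-ring assembly, led those of the core with 48.9 and 50.02 FPKM in siControl, 45.5 and 36.2 in siUPF1, 41.2 and 37.9 in MYC and 42.2 and 41.2 in MYC-UPF1. PSMD5 and PSMG2 were lower in both vector groups than in siControl. PSMG1 had a mean of 23.6 FPKM. PSMG4 was at 3.37 and 2.80 FPKM in siControl, 2.80 and 2.39 in siUPF1, 2.78 and 3.06 in MYC and 2.38 and 2.49 in MYC-UPF1. PSMG4 shares 1388 exonic bases with SLC22A23 on the opposite strand, and PSMG2 shares 468 with CEP76. Whether counting used strand is not given in the sources used here.

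The siControl and MYC libraries come from different transfections and were only described. The MYC mean was below the siControl mean for 36 of 44 members, with a median log2 ratio of mean FPKM of -0.14, beside -0.069 for all genes tested. Both MYC libraries lay below both siControl libraries for 29 members (65.9%), against 41.2% of all genes tested, and above them for 2 members (4.55%), against 25.7%. The lowest ratio was that of PSMD5 (-0.47) and the highest that of PSMD3 (0.19).

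UPF1 depletion was addressed by comparing siUPF1 with siControl. On the log2(FPKM + 1) scale, 4 members were higher in siUPF1 at an unadjusted p of 0.05 and 0 were lower. The 4 genes are the lid subunits PSMD8 and PSMD13, the base chaperone PSMD9 and the core chaperone PSMG3, and each rose by 0.23 to 0.34 on the log2 scale. Their share of the 44 members was 9.09%, whereas 16.0% of the 13535 genes tested rose and 5.51% fell at this threshold. No member passed a Benjamini-Hochberg adjusted p of 0.05 in limma, a threshold that 5 genes in all (0.0369%) passed in this comparison.

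PSMD8, on chromosome 19 from 38865203 to 38874490 (GRCh37, as are the positions that follow), was at 101 and 105 FPKM in siControl, 138 and 116 in siUPF1, 108 and 113 in MYC and 105 and 103 in MYC-UPF1. Both siUPF1 libraries were above the other 6 libraries. The log2 change was 0.29 ± 0.110 (SE), with a 95% interval of 0.031 to 0.55 (limma, Benjamini-Hochberg adjusted p = 0.201). PSMD13, on chromosome 11 from 236966 to 252984, was at 92.6 and 96.6 FPKM in siControl, 107 and 116 in siUPF1, 87.4 and 89.1 in MYC and 88.5 and 84.4 in MYC-UPF1, and again both siUPF1 libraries were the highest of the 8. Its log2 change was 0.23 ± 0.0949 (limma, Benjamini-Hochberg adjusted p = 0.222).

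PSMD9, which helps to assemble the base ATPases, lies on chromosome 12 from 122326638 to 122356203 and was at 6.60 and 7.26 FPKM in siControl, 8.07 and 8.998 in siUPF1, 6.23 and 7.64 in MYC and 6.50 and 5.33 in MYC-UPF1. The siUPF1 libraries were above every other library, and MYC-UPF1 replicate 2 was the lowest. The log2 change was 0.27 ± 0.101 (limma, Benjamini-Hochberg adjusted p = 0.204). PSMD9 shares 1307 exonic bases with another annotated gene on the same strand that was not analysed here, so reads from both genes cannot be told apart. PSMG3, which works with PSMG4 in alpha-ring assembly, lies on chromosome 7 from 1606968 to 1610641 and was at 27.6 and 30.4 FPKM in siControl, 32.5 and 41.9 in siUPF1, 26.7 and 32.1 in MYC and 26.6 and 25.5 in MYC-UPF1. Both siUPF1 libraries were the highest of the 8, although replicate 1 was only just above MYC replicate 2. The log2 change was 0.34 ± 0.134 (limma, Benjamini-Hochberg adjusted p = 0.214). The antisense transcript PSMG3-AS1 shares 60 exonic bases with it and was at 1.42 and 1.64 FPKM in siControl, 2.41 and 2.36 in siUPF1, 1.67 and 2.14 in MYC and 1.77 and 1.68 in MYC-UPF1, a log2 change in siUPF1 of 0.42 (limma, Benjamini-Hochberg adjusted p = 0.0993).

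**Figure D2:**
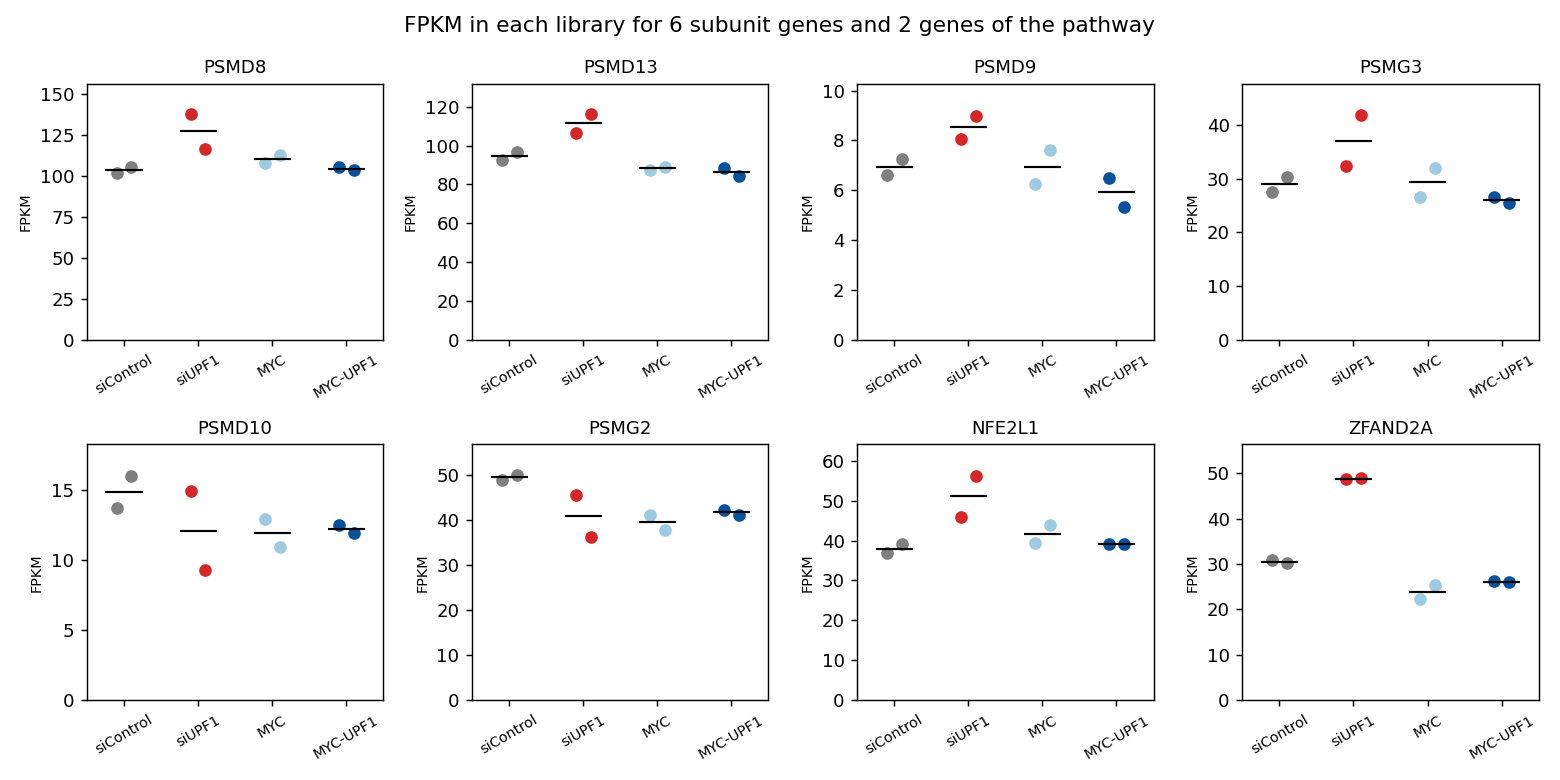
FPKM in each library (points, 2 per group) and the group mean (bar) for 6 members and 2 genes of the pathway, on linear axes that start at 0. For PSMD8, PSMD13, PSMD9 and PSMG3 both siUPF1 points lie above all others, for PSMD10 siUPF1 replicate 2 lies at 9.27 FPKM apart from the rest, and for ZFAND2A both siUPF1 points lie at 48.6 and 48.96 FPKM.

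The number of calls changed when single libraries were left out, in a fit where the lone library of a group is assumed to vary like the remaining pair. Without siControl replicate 1 no member was higher at an unadjusted p of 0.05, beside 7.01% of all genes tested, and the log2 changes were 0.26 for PSMD8, 0.20 for PSMD13, 0.21 for PSMD9 and 0.27 for PSMG3. Without siControl replicate 2 PSMG3 alone was higher, beside 9.93% of all genes tested, and PSMD8 (0.32), PSMD13 (0.26) and PSMD9 (0.32) did not pass. Without either siControl library the lost calls thus had log2 changes of 0.20 to 0.32, beside 0.23 to 0.34 as reported. Without siUPF1 replicate 2 there were 2 higher (PSMD8 and PSMA4, of which PSMD8 passed the adjusted threshold as well), beside 16.5% of all genes tested, and the changes of PSMD13 (0.17), PSMD9 (0.20) and PSMG3 (0.16) did not pass. Without siUPF1 replicate 1 there were 8 higher and 9 lower, beside 27.2% and 16.5% of all genes tested, and PSMD8 (0.17) was not among them. Of these, 7 and 5 passed the adjusted threshold, which 4546 of 13512 genes tested passed in that fit. Median centring of the libraries gave 1 member higher (PSMD8) and 3 lower, beside 11.8% and 9.39% of all genes tested. Quantile normalization gave 2 higher (PSMD8 and PSMD13) and 3 lower, beside 10.5% and 10.4%. The members lower under both were PSMA3, PSMG1 and PSMG2.

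The median log2 change of the 44 members was 0.016 (middle 50% from -0.092 to 0.089), beside 0.057 for all genes tested (-0.080 to 0.20). The sign of the members' median turned under quantile normalization (-0.013) and median centring (-0.023), and also without siControl replicate 1 (-0.028) or without siUPF1 replicate 1 (-0.021). The value lay beyond 0.3 in either direction for 2 members (4.55%), against 16.8% of all genes tested. The 95% interval of the change lay within ±0.5 for 39 members and within ±1 for all 44, its extremes being -0.77 for PSMD10 and 0.66 for PSMG3. By role, the median was -0.019 for the alpha ring, 0.035 for the beta ring, 0.069 for the ATPases, 0.040 for the lid, 0.016 for the activators, -0.091 for the base chaperones and -0.19 for the core chaperones. Both siUPF1 libraries lay above both siControl libraries for 11 members (25%, against 37.5% of all genes tested) and below them for 6 (13.6%, against 18.5%). The 11 were PSMB3, PSMB6, PSMC4, PSMC5, PSMD3, PSMD4, PSMD7 and the 4 genes called, and the 6 were PSMA3, PSMC2, PSMD2, PSMD12, PSMG1 and PSMG2.

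The members with the most negative values did not pass the test. PSMD10, also called gankyrin and known as a liver cancer oncoprotein beside its role as a base chaperone, was at 13.7 and 15.97 FPKM in siControl, 14.9 and 9.27 in siUPF1, 12.9 and 10.96 in MYC and 12.5 and 11.9 in MYC-UPF1. The siUPF1 libraries differed from each other, as replicate 2 was the lowest of the 8 and replicate 1 lay between the siControl libraries. The log2 change was -0.30 ± 0.199 (limma, Benjamini-Hochberg adjusted p = 0.396), and leaving out single libraries moved it from -0.62 to 0.012, the former without siUPF1 replicate 1. PSMG2 had a log2 change of -0.28 (limma, adjusted p = 0.246), with both siUPF1 libraries below both siControl libraries and replicate 2 the lowest of the 8. PSMA3 (-0.21) and PSMG1 (-0.20) were also lower in both siUPF1 libraries than in both siControl libraries and had adjusted p of 0.258 and 0.280 in limma.

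**Figure D3:**
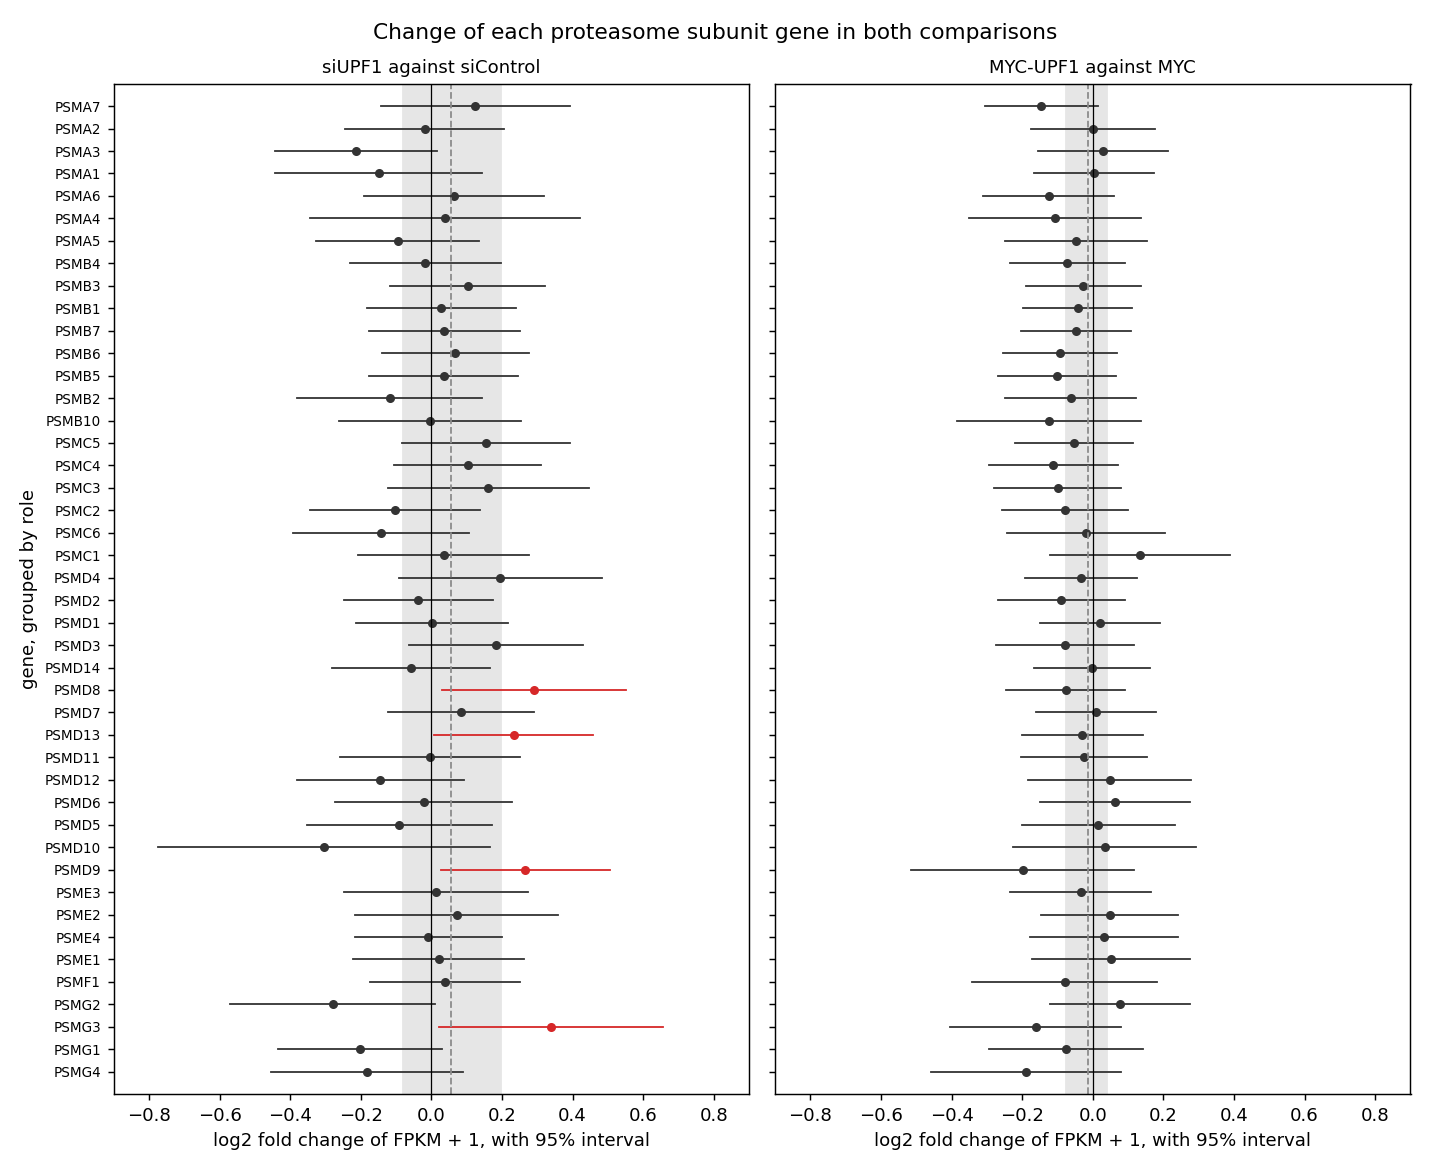
Log2 change of each member on the log2(FPKM + 1) scale with its 95% interval from limma, for siUPF1 against siControl (left) and MYC-UPF1 against MYC (right); red marks an unadjusted p under 0.05, the dashed line is the median of all genes tested and the grey band their middle 50%. On the left 4 members are red, and on the right all 44 intervals include 0.

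The changes of the members followed the GC content of their transcripts. GC content of the canonical transcript had a median of 48.1% among the members (36.4% to 61.7%), and their length a median of 1529 bases against 2957 for all genes with a value. Across the 44 genes, the change in siUPF1 had a Pearson r of 0.70 and a Spearman rho of 0.70 with GC content, beside 0.54 and 0.56 across 12509 genes tested. These points share the same 4 libraries. The difference between siUPF1 replicate 2 and replicate 1, which are the same condition, had an r of 0.70 with GC content over the members, and that between the siControl replicates -0.17. With each library's trend on GC content and length removed, the r of the members was 0.14, and 1 member was higher (PSMD9) and 4 lower (PSMB10, PSMD2, PSMG2 and PSMG4) at an unadjusted p of 0.05, beside 11.8% and 12.1% of all genes tested in that fit. PSMD8 (log2 change 0.13), PSMD13 (0.16) and PSMG3 (0.16) then no longer passed, with limma adjusted p of 0.475, 0.214 and 0.331. PSMD9 in turn did not pass with quantile normalization (0.22), median centring (0.23) or all 8 libraries in a single fit (0.27).

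**Figure D4:**
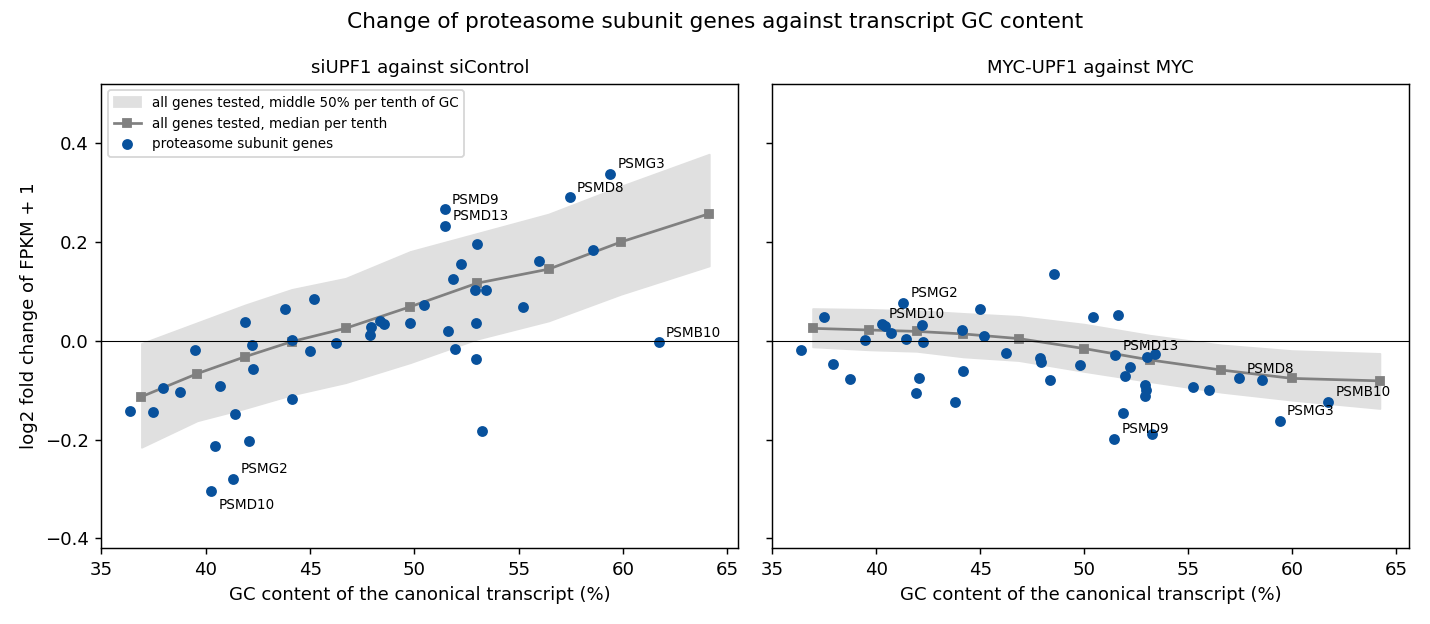
Log2 change of FPKM + 1 against the GC content of the canonical transcript for the 44 members (blue points), for siUPF1 against siControl (left) and MYC-UPF1 against MYC (right); grey squares are medians of all genes tested in bins of GC content and the grey band their middle 50%. On the left the members climb with GC content as all genes do, with r = 0.70, and on the right they fall, with r = -0.50.

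Because UPF1 acts in NMD, the members were also grouped by annotation. GENCODE lists a transcript of the NMD class for 29 of 44 members (65.9%) and for 48.4% of the 11489 protein-coding genes tested. The median log2 change in siUPF1 was 0.020 for members with such a transcript and -0.0035 for the 15 without, beside 0.056 and 0.051 over the protein-coding genes. PSMD8, PSMD13 and PSMD9 have such a transcript and PSMG3 has none. Thus 3 of the 29 members with such a transcript were called higher, beside 910 of the 5558 protein-coding genes with one. A value per gene does not show which transcript was read. Members with the TGACNNNGC core in the promoter had a median change in siUPF1 of 0.067 and those without it -0.0035. For CCAAT the medians were -0.0034 and 0.028. Neither difference was tested, the medians were not adjusted for GC content, and no such medians were taken over all genes. Of PSMD8, PSMD13, PSMD9 and PSMG3, only PSMD9 had the TGACNNNGC core.

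UPF1 overexpression was addressed by comparing MYC-UPF1 with MYC. No member was higher and no member was lower at an unadjusted p of 0.05 in limma, where 0.619% of the 13251 genes tested were higher and 0.807% lower, and none passed the adjusted threshold, which UPF1 alone passed (0.00755%). The member with the smallest p was PSMA7, at 255 and 271 FPKM in MYC and 232 and 244 in MYC-UPF1, a log2 change of -0.15 ± 0.0714 (SE). The median log2 change of the 44 members was -0.045, beside -0.014 for all genes tested, with 30 members below 0 and 14 above. Changes ran from -0.20 for PSMD9 to 0.13 for PSMC1, and 0 members passed 0.3 in either direction, against 1.43% of all genes tested. The 95% interval lay within ±0.5 for 43 members and within ±1 for 44, with extremes of -0.51 (PSMD9) and 0.39 (PSMC1). Without MYC replicate 1, 2 members (PSMA7 and PSMG3) were lower at an unadjusted p of 0.05, beside 4.96% of all genes tested, and without MYC replicate 2, 1 member (PSMA6) was, beside 0.596%.

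Both MYC-UPF1 libraries lay below both MYC libraries for 16 members (36.4%), against 11.8% of all genes tested, and above them for 2 (PSMD1 and PSMD6, 4.55%, against 8.88%). The 16 include the catalytic subunits PSMB5, PSMB6 and PSMB7, whose log2 changes were -0.10, -0.093 and -0.048, as well as PSMA5, PSMA6, PSMA7, PSMB1, PSMB10, PSMC2, PSMC3, PSMC4, PSMC5, PSMD4, PSMD8, PSMG3 and PSMG4. All 7 beta-ring genes had a value below 0, with a median of -0.062, although that of PSMB3 (-0.027) turned to 0.0026 under quantile normalization. The median was -0.047 for the alpha ring, -0.066 for the ATPases, -0.013 for the lid, 0.040 for the activators and -0.12 for the core chaperones. GC content moved with these values too: the r of the members' change with GC content was -0.50, beside -0.33 across 12290 genes tested. That of MYC replicate 2 minus replicate 1 was 0.71 over the members. With the GC and length trend removed, the r of the members' change was -0.18. After the trend with GC and length was taken out, PSMA6 (-0.15), PSMA7 (-0.14) and PSMG4 (-0.18) were lower at an unadjusted p of 0.05 in limma, beside 1.48% of all genes tested in that fit, and none passed the adjusted threshold.

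The change in siUPF1 was then tested against the change in MYC-UPF1 in a fit over all 8 libraries. It differed for 5 members at an unadjusted p of 0.05 (11.4%, against 15.2% of the 13412 genes tested) and for 0 at an adjusted p of 0.05 (against 0.0224%). The difference in log2 change was 0.37 for PSMD8, 0.50 for PSMG3, 0.46 for PSMD9 and 0.26 for PSMD13, with limma adjusted p from 0.246 to 0.319. PSMG2 differed the other way, by -0.36 (limma, adjusted p = 0.317).

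Genes that work with the proteasome were taken from a list of 35, all of them tested. In siUPF1, 4 were higher (11.4%, against 16.0% of all genes tested) and 1 lower (2.86%, against 5.51%) at an unadjusted p of 0.05. None passed the adjusted threshold in limma, and the median was 0.024, beside 0.057 for all genes tested. ZFAND2A, an arsenite-inducible proteasome-associated protein, was at 30.8 and 30.2 FPKM in siControl, 48.6 and 48.96 in siUPF1, 22.3 and 25.4 in MYC and 26.3 and 25.97 in MYC-UPF1. Both siUPF1 libraries stood well clear of the other 6, and the log2 change was 0.66 ± 0.0877 (limma, Benjamini-Hochberg adjusted p = 0.0584). NFE2L1, the transcription factor named above, was at 36.8 and 39.1 FPKM in siControl, 45.8 and 56.2 in siUPF1, 39.4 and 43.9 in MYC and 39.1 and 39.2 in MYC-UPF1. Its siUPF1 libraries were the highest of the 8, with a log2 change of 0.41 ± 0.119 (limma, adjusted p = 0.139). After removal of the GC and length trend the values of ZFAND2A and NFE2L1 were 0.60 and 0.26, and both still passed the unadjusted threshold. NFE2L1 no longer passed without siControl replicate 1 (0.37).

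PITHD1 (0.30, limma adjusted p = 0.148), which contains a proteasome-interacting domain, and MAFG (0.25, limma adjusted p = 0.225), a dimer partner of NFE2L1, were also higher at the unadjusted threshold. With the GC and length trend removed, PITHD1 (0.24) still passed and MAFG (0.056) did not. POMP, the maturation factor of the core particle, was lower with 63.04 and 71.7 FPKM in siControl and 57.8 and 55.8 in siUPF1, a log2 change of -0.24 (limma, adjusted p = 0.232), a value that became -0.029 after removal of the GC and length trend. The ubiquitin receptor ADRM1 (0.14) and the deubiquitinases USP14 (-0.24) and UCHL5 (-0.14) of the regulatory particle did not pass. In MYC-UPF1, 0 of the 35 genes were higher or lower at an unadjusted p of 0.05, with a median of -0.015, beside -0.014 for all genes tested. Of the genes that act beside the immunoproteasome in antigen presentation, 5 of the 7 in the list were tested. In siUPF1 TAPBP alone passed (0.26, limma, Benjamini-Hochberg adjusted p = 0.214), or 20% of the 5, against 16.0% of all genes tested. In MYC-UPF1 0 of the 5 passed, beside 0.619% of all genes tested higher and 0.807% lower. TAPBP was at 3.68 and 4.20 FPKM in siControl and 4.70 and 5.09 in siUPF1, and its change became 0.082 after removal of the GC and length trend. B2M, the invariant chain of class I molecules, had a log2 change of -0.26 (limma, adjusted p = 0.288), and NLRC5 was under the FPKM minimum of 0.5. The calls of PITHD1, MAFG, POMP and TAPBP each ended without siControl replicate 1 (0.26, 0.20, -0.33 and 0.18) and without siControl replicate 2 (0.33, 0.29, -0.15 and 0.33), and those of MAFG (0.17) and TAPBP (0.21) also without siUPF1 replicate 2.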

How the data were processed

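RNA-seq was analysed from the deposited FPKM values, 1 per gene and library, of 8 libraries in 4 groups of 2. According to the study's methods and the labels, the authors prepared stranded mRNA libraries, trimmed the reads (Trimmomatic 0.38), aligned them to hg19 (HISAT2 2.1.0) and assembled and quantified transcripts against NCBI annotation (StringTie 1.3.4d). FPKM hides the number of reads, so depth and counting error are unknown. The whole-series and single-library files differed in 0 values, and no value was 0.

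Each treated group was compared with its control by limma 3.58.1 in R 4.3.3 on log2(FPKM + 1), with a mean-variance trend, over all genes with a mean of at least 0.5 FPKM and Benjamini-Hochberg adjustment over all of them. All 44 members passed this minimum in both comparisons. A fold change on this scale understates that of low genes. With 2 libraries per group an exact test cannot reach 0.05. The study's threshold of 0.05 names no adjustment, so both thresholds were used. Members, lists and motifs were chosen with earlier results of these data known. Values in every library are given for members called in a comparison, the highest and lowest of each role, the catalytic subunits and PSMB10, PSMD10, PSMD14, PSME3, PSME4 and PSMF1. Other names were chosen once values were known. Coordinates, GC content, lengths and NMD annotation come from GENCODE release 44 mapped to GRCh37. The test was checked on simulated data drawn independently for each gene and without a GC trend. That check therefore does not cover the GC trends between replicates. Alternatives were another pseudocount (0.1), other FPKM minimums, quantile normalization, median centring, removal of each library's GC and length trend (loess, span 0.5), all 8 libraries in a single fit, no trend, replicate blocks and each library left out. Tables and figures were made in Python 3.11.15 (pandas 2.3.3, matplotlib 3.10.9).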

Additional observations from a re-analysis of the deposited data

How the results depend on the processing

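With a pseudocount of 0.1, no FPKM minimum or no mean-variance trend, the counts of members called stayed within 1.5 times those reported. With no FPKM minimum PSMG3, MAFG and TAPBP no longer passed in siUPF1, and with no mean-variance trend POMP did not. No called value changed sign under any alternative. In siUPF1, members higher at an unadjusted p of 0.05 numbered 4 as reported, 2 with quantile normalization, 1 with median centring and 1 with the GC and length trend removed, with or without the replicate block. Members lower numbered 0 as reported, 3 with quantile normalization, 3 with median centring and 4 with the GC and length trend removed. There were 3 lower with the replicate block added to that, beside 11.3% of all genes tested. A minimum of 5 FPKM gave 1 lower, beside 7.37%, and all 8 libraries in a single fit gave 2, beside 6.07%. Leaving out each library gave 0 to 8 higher and 0 to 9 lower, and 0 to 7 higher and 0 to 5 lower at an adjusted p of 0.05. The members' median relative to all genes tested was -0.040, and -0.011 with quantile normalization, 0.0041 with the GC and length trend removed, with or without the replicate block, and -0.072 to -0.021 with a library left out. In MYC-UPF1, members lower numbered 0 as reported, 3 with the GC and length trend removed, 2 with the replicate block added to that and 0 to 2 with a library left out. With the GC and length trend removed, 1.48% of all genes tested were lower in MYC-UPF1, and 0.806% with the replicate block added. Apart from removing the trend or a library, the cause of these moves was not tested.

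Replicate numbers did not pair the libraries: the correlation of replicate differences between control and treated groups was -0.13 for depletion and -0.57 for overexpression. With the replicate number as a block, 3 members were higher in siUPF1 (PSMD13 no longer passed) and 0 lower. In that fit 14.6% of all genes tested were higher and 4.48% lower. In MYC-UPF1 the block gave 0 members, beside 0.558% of all genes tested higher and 0.724% lower. This block also ended the calls of POMP, MAFG and TAPBP and changed no other call named here. A crossed pairing, chosen after seeing the data, gave 3 higher (PSMD13 no longer passed) and 2 lower in siUPF1. Over all genes tested it gave 16.2% higher and 6.74% lower. In MYC-UPF1 the crossed pairing gave 5 members lower, beside 6.63% of all genes tested, a share that was 0.807% without it. The FPKM values carry no depth, so counting error could not be set beside these changes.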

Other observations

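Among symbols that begin with PSM but are no subunit, PSMC3IP, which encodes a cofactor of meiotic recombination named for its binding to PSMC3, was at 8.62 and 8.69 FPKM in siControl, 12.9 and 16.5 in siUPF1, 6.85 and 6.95 in MYC and 6.35 and 7.65 in MYC-UPF1. Both siUPF1 libraries lay above the other 6, with a log2 change of 0.69 ± 0.126 (limma, Benjamini-Hochberg adjusted p = 0.0793). This gene was named after its values were seen. The antisense gene PSMA3-AS1 was at 18.1 and 23.5 FPKM in siControl, 17.7 and 20.3 in siUPF1, 10.4 and 8.82 in MYC and 8.41 and 11.5 in MYC-UPF1. Both vector groups were below both siRNA groups, and siUPF1 and siControl overlapped.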
